A study of Mus musculus with 24 samples.

Results

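The metallothionein genes Mt1, Mt2 and Mt3 were followed through dorsal and ventral hippocampus of mice whose fathers had been given nicotine or saline. They were the 3 rows carrying these symbols among the 51912 genes of the count table. The rows were taken by gene symbol, but the family was chosen with earlier results of these data known. All 3 passed the filter on low counts in every fit, and all 3 were read in each of the 24 libraries.

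Metallothioneins are small proteins in which clustered cysteine thiols hold zinc and copper. Mt1 and Mt2 are made in most tissues and in brain mainly by astrocytes, ependymal cells and choroid plexus, and their transcription is raised by zinc through the factor MTF1, by glucocorticoids and by inflammatory signals. Mt3 is enriched in brain, where neurons that load zinc into synaptic vesicles and astrocytes carry it, and it responds little to metals.

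RNA came from 12 C57BL/6J mice, the male and female offspring of sires under chronic treatment with nicotine or with saline. Each mouse gave a dorsal and a ventral library, which makes 8 groups of 3 libraries by sire treatment, sex and region. The sources used here give no dose, route, age of the offspring or number of sires. The sires were treated, not the mice whose RNA was read. The number in the library titles differs between the 4 combinations of sire treatment and sex and is not explained. If it marks a sire or a litter, the 3 mice of a group are not independent replicates of the treatment, and the number cannot be told apart from sire treatment. P-values therefore measure the spread among these mice. Libraries are named below by sire treatment, sex and the title letter A, B or C. Total counts lay between 32049770 and 47486547 per library, with a median of 39578834. The summed level of 14 astrocyte markers lay between 5344 and 7123 CPM (counts scaled by the TMM method to a library of 1000000), and that of 10 neuron markers between 8722 and 11517. The summed level of 13 choroid plexus markers ran from 168 to 7550 CPM over the libraries. In bulk tissue, fewer cells of a type and less RNA per cell cannot be told apart.

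The genes lie side by side on the plus strand of chromosome 8 (GRCm38, GENCODE M21). Mt3 (ENSMUSG00000031760) spans chr8:94152607-94154146, Mt2 (ENSMUSG00000031762) spans chr8:94172664-94173568 and Mt1 (ENSMUSG00000031765) spans chr8:94179082-94180327. Gaps of 18517 bp and 5513 bp separate Mt3 from Mt2 and Mt2 from Mt1. Mt4 (ENSMUSG00000031757), the family member of squamous epithelium, lies 13575 bp before Mt3. It had 1 count in each of 2 libraries and 0 in the rest.

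The coding sequences are shown because the 3 genes share a cysteine-rich code yet can be told apart by sequencing reads. Each is the coding part of the first listed GENCODE transcript, which has 3 exons in each gene, with the cysteine codons in capitals.
Mt1: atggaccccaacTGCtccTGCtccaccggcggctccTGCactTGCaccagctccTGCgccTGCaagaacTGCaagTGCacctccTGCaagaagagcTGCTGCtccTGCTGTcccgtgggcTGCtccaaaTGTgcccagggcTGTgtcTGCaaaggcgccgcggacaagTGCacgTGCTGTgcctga
Mt2: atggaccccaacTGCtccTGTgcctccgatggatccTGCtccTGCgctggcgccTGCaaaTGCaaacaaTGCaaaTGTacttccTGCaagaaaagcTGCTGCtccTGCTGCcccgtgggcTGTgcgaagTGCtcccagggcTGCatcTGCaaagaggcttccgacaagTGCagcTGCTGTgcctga
Mt3: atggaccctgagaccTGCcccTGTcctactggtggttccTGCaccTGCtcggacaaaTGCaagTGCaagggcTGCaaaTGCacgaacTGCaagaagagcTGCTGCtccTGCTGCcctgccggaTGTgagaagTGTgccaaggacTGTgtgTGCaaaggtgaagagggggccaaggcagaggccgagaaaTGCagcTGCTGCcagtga
All 3 hold 20 cysteine codons, which is 32.8% of the 61 codons of Mt1 and Mt2 and 29.4% of the 68 codons of Mt3. Mt1 and Mt2 were identical at 79.6% of 186 aligned bases, Mt1 and Mt3 at 66.2% and Mt2 and Mt3 at 67.6% of 207 aligned columns. The longest exact run shared by a pair of transcripts was 27 bases, between Mt1 and Mt3. No window of 150 bases, the read length, of the Mt1 or Mt3 transcript occurred in a transcript of another gene on either strand. Of the 362 such windows of Mt2, 63 (17.4%) occurred on the opposite strand of Gm45774, an antisense transcript that covers 432 bp of Mt2 exon. Gm45774 had 12 to 73 counts per library, 0.275% to 1.49% of the Mt2 count. The strand setting of the counting is not given, so reads from the overlap cannot be assigned between them.

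Mt1 and Mt2 varied together across libraries (below), and the bases before their starts are printed for that reason. They are the RefSeq promoter windows (GRCm38.p6, plus strand), cut where the transcript of either annotation begins, chr8:94178839-94179081 for Mt1 and chr8:94172368-94172617 for Mt2. Capitals mark the core of the metal response element, the site of MTF1, searched as TGCACNC and TGCGCNC on both strands.
Mt1: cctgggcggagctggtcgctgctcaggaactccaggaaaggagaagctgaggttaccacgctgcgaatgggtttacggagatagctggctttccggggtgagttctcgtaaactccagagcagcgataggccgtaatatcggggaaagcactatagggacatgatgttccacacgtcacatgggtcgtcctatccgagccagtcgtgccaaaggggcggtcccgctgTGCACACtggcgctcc
Mt2: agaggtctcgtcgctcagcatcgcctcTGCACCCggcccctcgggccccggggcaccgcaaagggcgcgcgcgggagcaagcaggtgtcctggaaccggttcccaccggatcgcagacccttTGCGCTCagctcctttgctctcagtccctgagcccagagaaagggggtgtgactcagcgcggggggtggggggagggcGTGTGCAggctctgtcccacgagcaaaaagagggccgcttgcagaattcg
Mt1 had 1 match, 23 bases before its RefSeq start, and Mt2 had 3, beginning 223, 128 and 50 bases before its own. The corresponding 250 bases of Mt3 had 0. Among 32851 RefSeq windows of 250 bases, 21.4% had at least 1 match and 1.3% had 3 or more. The half-site of the glucocorticoid receptor, AGAACA on either strand, was in none of the 3 windows and in 16.1% of all windows. The antioxidant response element core TGACNNNGC was in the Mt2 window once and in 10.2% of all. The Mt2 starts of RefSeq and GENCODE lie 46 bp apart, and these RNA counts do not show which start Mt1 or Mt2 used. Bases outside the 250 before each RefSeq start were not searched, so the numbers of matches hold for these windows only. Mt1 has 3 GENCODE transcripts, and its printed window lies before the outermost start. Sites between the searched bases and any start further in were not counted, so its 1 match is not a count for the whole promoter. A match is a description of letters, not evidence of binding.

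All 3 genes were highly expressed in both regions. Over the 24 libraries, Mt1 ranged from 114 to 249 CPM with a median of 171, Mt2 from 61.0 to 140 with a median of 98.4 and Mt3 from 162 to 290 with a median of 231. The coefficient of variation over all libraries was 16.2% for Mt1, 21.6% for Mt2 and 11.1% for Mt3, so the brain-enriched member was the steadiest. Per kilobase of merged exon, the medians were 137 CPM for Mt1, 167 for Mt2 and 216 for Mt3. On that scale Mt3 stood above Mt1 in 24 of 24 libraries and above Mt2 in 22, and Mt1 stood above Mt2 in 1. The place of Mt1 rests on the length used, since its merged exons come to 1246 bp and its first listed transcript to 549 bp. With the first listed transcripts, Mt1 stood above Mt2 in 24 of 24 libraries, at medians of 312 and 193 CPM per kilobase. Mt3 then stood above Mt1 in 23 of 24, at a median of 430. Among 21870 protein-coding genes ranked by mean CPM per kilobase of merged exon, Mt3 was 118th, Mt2 161st and Mt1 205th. With the longest transcript as the length, Mt3 was 61st, Mt2 204th and Mt1 263rd.

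**Figure D1:**
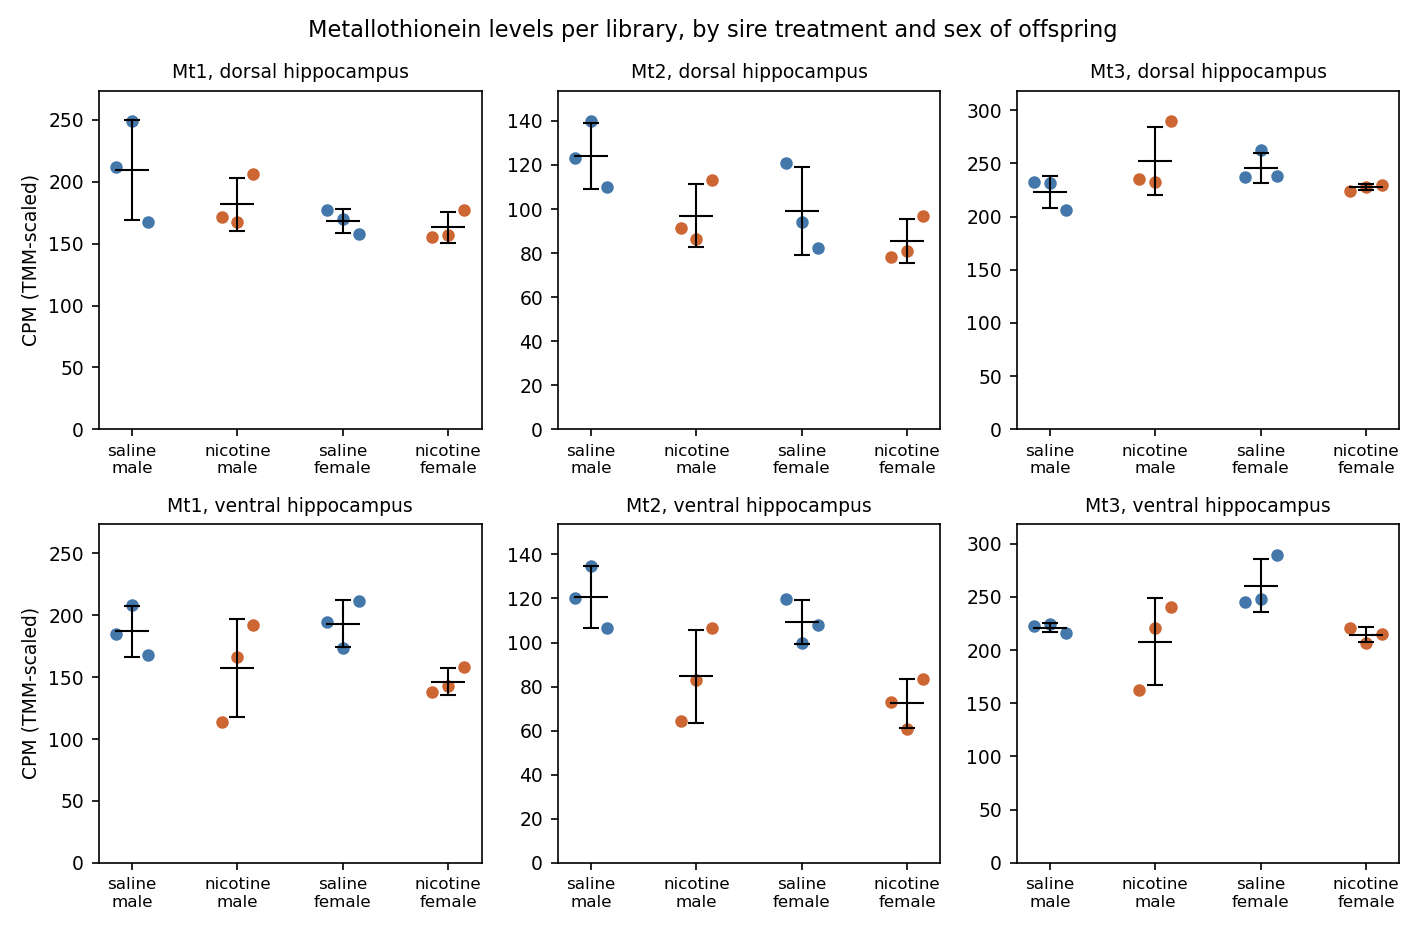
Level of each metallothionein gene in each library (y axis, TMM-scaled CPM, from 0), in 4 groups of 3 libraries per panel (x axis, sire treatment and sex; blue saline, orange nicotine), dorsal above and ventral below. Points are libraries in the order A, B, C and bars give the mean and SD; in ventral hippocampus Mt2 of the nicotine-sired groups lies lowest, between 61.0 and 106 CPM.

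The main comparison asked whether the offspring of nicotine-treated sires differed from those of saline-treated sires. In ventral hippocampus Mt2 was lower in the nicotine-sired offspring, by 0.55 on the log2 scale, and it was the only metallothionein call that edgeR made among the comparisons of sire treatment, sex and region without a block. Mt1 and Mt3 had differences of -0.33 and -0.18 there, which did not pass. In dorsal hippocampus none of the 3 passed.

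Mt2, one of the pair of inducible isoforms, had 120, 135 and 107 CPM in the ventral libraries of saline-sired males A, B and C. Saline-sired females had 120, 99.8 and 108. Nicotine-sired males had 64.2, 83.1 and 106, and nicotine-sired females had 72.9, 61.0 and 83.3. In both sexes every nicotine-sired library was below every saline-sired library of the same sex. Over both sexes 5 of the 6 nicotine-sired libraries were below the lowest saline-sired one. The exception was nicotine-sired male C, which stood just below the saline-sired males but above saline-sired female B. The groups of 6 therefore overlapped, as they did for each of the 3 genes; 1.28% of all genes had groups of 6 apart. The means were 115 ± 12.6 CPM for saline and 78.5 ± 16.5 for nicotine (SD, n = 6 libraries each). The log2 difference over both sexes was -0.55 ± 0.12 (SE, adjusted p = 0.0395, edgeR quasi-likelihood test with Benjamini-Hochberg adjustment over 19224 genes). In that comparison 1.75% of the genes tested passed in either direction and 0.65% passed as lower. DESeq2 gave -0.55 with an adjusted p of 0.000183, in a test that passed 3.54% of genes.

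The call lay close to the threshold: it was lost in 9 of 12 refits that left out 1 mouse, with differences of -0.65 to -0.47 and adjusted p-values of 0.00889 to 0.116. It was also lost without the filter on low counts (adjusted p = 0.104) and when the choroid plexus level entered the fit (-0.56, adjusted p = 0.125).

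Several other measures moved with sire treatment in the ventral libraries. Reads counted to 962 noncoding genes opposite 793 coding genes came to 0.300% to 0.351% of the coding count in nicotine-sired males and 0.215% to 0.251% in nicotine-sired females, against 0.175% to 0.211% in the saline-sired groups. That share separates the groups, so it cannot be told apart from sire treatment. With it as a covariate the Mt2 difference was -1.01 ± 0.31 (adjusted p = 0.913), and 1 gene passed in the whole table. The 13 choroid plexus markers, none of them at 0 in every library, summed to 168 to 328 CPM in the saline-sired libraries and 259 to 309 in nicotine-sired males. In the 3 nicotine-sired females they summed to 282, 2726 and 2861 CPM. Of 7 blood markers tested, 4, all globin genes, were higher, and the 8 listed summed to 391 to 487 CPM in nicotine-sired against 282 to 377 in saline-sired libraries. None of the 14 astrocyte markers passed, and their sums overlapped, at 5988 to 7123 CPM for nicotine and 5797 to 6730 for saline. In males alone the astrocyte genes Aqp4 and Sox9 were higher. The 10 endothelial markers summed to 281 to 334 CPM in nicotine-sired against 373 to 404 in saline-sired males, groups that were also apart in dorsal hippocampus, at 272 to 310 against 372 to 384. In ventral females their sums overlapped, at 301 to 331 for nicotine and 303 to 330 for saline. Over both sexes 4 endothelial markers were lower (Ly6a, Ly6c1, Mfsd2a and Slc2a1) and 2 higher (Kdr and Tek). The 8 ependymal markers summed to 8.67 to 14.0 CPM in ventral nicotine-sired males against 16.01 to 21.1 in saline-sired males, with none passing. Of 8 microglia markers, Cx3cr1 and P2ry12 were higher, as was Opalin among 8 of oligodendrocytes, and none of the neuron and leptomeningeal markers passed. Of all genes, 1.75% passed in ventral hippocampus over both sexes and 3.21% in ventral males. The microglia sums overlapped, at 324 to 425 CPM for nicotine and 358 to 407 for saline. The oligodendrocyte sums overlapped too, at 3649 to 4172 CPM for nicotine and 3617 to 4963 for saline. Apart from the choroid plexus covariate, the part of these cell types in the Mt2 result was not tested.

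Within the sexes the Mt2 difference had about the same size. It was -0.51 ± 0.17 in males (adjusted p = 0.150) and -0.59 ± 0.17 in females (adjusted p = 0.185) by edgeR, while DESeq2 passed both, at adjusted p-values of 0.0348 and 0.0271. edgeR passed 3.21% of all genes in males and 0.0312% in females, and DESeq2 passed 4.65% and 1.4%. The 3 against 3 groups did not overlap in either sex, as was so for 22.4% of all genes in males and 19.9% in females. The test of the sex difference itself gave 0.08 ± 0.24 for males minus females (adjusted p = 0.914), where 1.07% of genes passed. These comparisons use the libraries that also enter the mean of both sexes.

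Mt1, the other inducible isoform, had 185, 208 and 168 CPM in ventral saline-sired males and 195, 174 and 211 in saline-sired females. Nicotine-sired males had 114, 166 and 192, and nicotine-sired females had 138, 143 and 158. Females of the sire treatments did not overlap, as was so for 19.9% of all genes, and males did. Over both sexes 5 of 6 nicotine-sired libraries were below the lowest saline-sired one. The log2 difference over both sexes was -0.33 ± 0.11 with an unadjusted p of 0.0120 and an adjusted p of 0.178 by edgeR, where 15.7% of genes had an unadjusted p under 0.05. It was -0.25 ± 0.16 in males and -0.40 ± 0.16 in females, with adjusted p-values of 0.490 and 0.293.

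Mt3, the brain-enriched member, had 223, 225 and 216 CPM in ventral saline-sired males and 245, 248 and 289 in saline-sired females. Nicotine-sired males had 162, 221 and 241, and nicotine-sired females had 221, 207 and 215. The female groups did not overlap, as was so for 19.9% of all genes, and the male groups did. Over both sexes the difference was -0.18 ± 0.08 (unadjusted p = 0.0378, adjusted p = 0.287, edgeR). It was -0.09 ± 0.11 in males and -0.28 ± 0.11 in females. Nicotine-sired male A held, in its ventral library, the lowest value of Mt1 and of Mt3 among all 24 libraries. Without that mouse the male difference became -0.06 for Mt1, -0.35 for Mt2 (from -0.51 with all mice) and 0.06 for Mt3, a change of sign for Mt3.

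In dorsal hippocampus Mt2 had 123, 140 and 110 CPM in saline-sired males and 121, 94.0 and 82.2 in saline-sired females. Nicotine-sired males had 91.3, 86.4 and 113, and nicotine-sired females had 78.3, 81.0 and 97.0. In each sex 2 of 3 nicotine-sired libraries fell below the lowest saline-sired one and the third lay within their range. Groups of 6 were apart for 0.376% of genes and for none of the 3 members. The difference over both sexes was -0.28 ± 0.11 with an unadjusted p of 0.0221 and an adjusted p of 0.388 by edgeR. Of 19130 genes tested, 0.0784% passed the adjusted threshold in this comparison and 10.8% had an unadjusted p under 0.05.

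Mt1 in dorsal hippocampus had 212, 249 and 168 CPM in saline-sired males, 177, 170 and 157 in saline-sired females, 172, 167 and 207 in nicotine-sired males and 155, 157 and 177 in nicotine-sired females. The groups overlapped in both sexes, and the difference was -0.12 ± 0.09 (adjusted p = 0.657, edgeR). Mt3 had 232, 231 and 206 CPM in saline-sired males, 237, 262 and 238 in saline-sired females, 236, 233 and 290 in nicotine-sired males and 224, 228 and 230 in nicotine-sired females. Nicotine-sired males were all above, and nicotine-sired females all below, the saline-sired mice of their sex. Groups of 3 were apart in this way for 25.2% of genes in males and 18.5% in females. The differences were 0.17 ± 0.09 in males and -0.10 ± 0.09 in females, neither of which passed, against 1.78% and 0.0314% of all genes. The test of the difference between the sexes gave 0.28 ± 0.12 (unadjusted p = 0.0440, adjusted p = 0.236, edgeR, with 2.24% of genes passing), and 0.18 without nicotine-sired male C, whose 290 CPM was the highest Mt3 value.

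**Figure D2:**
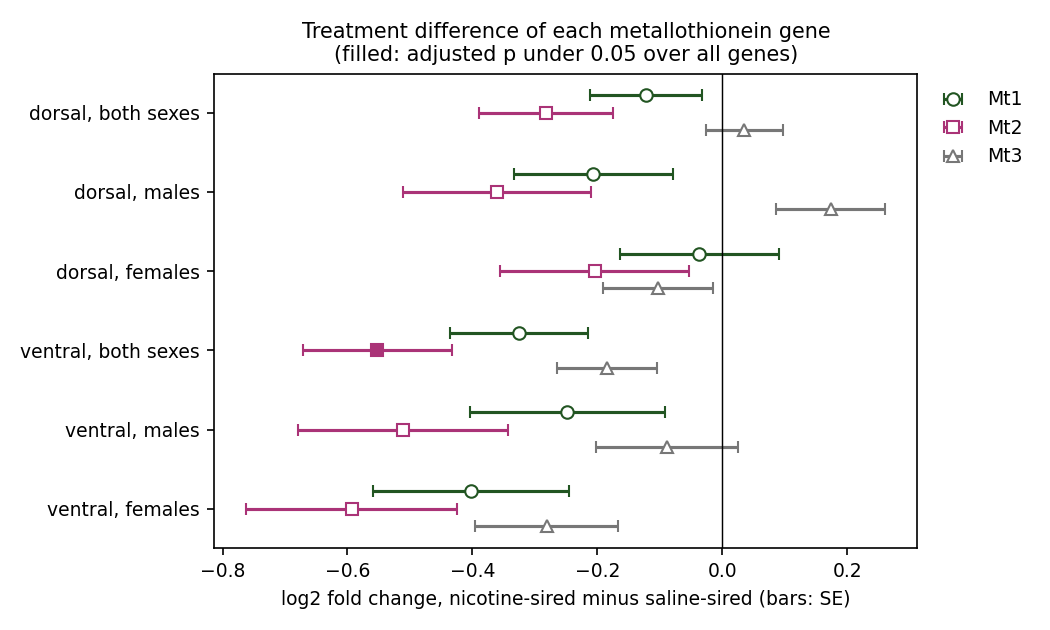
Difference of each metallothionein gene between nicotine-sired and saline-sired offspring (x axis, log2 fold change with SE; negative is lower in nicotine-sired), for both sexes, males and females of each region (y axis). Circles are Mt1, squares Mt2 and triangles Mt3, and a filled symbol passed the adjusted threshold; Mt2 lies left of Mt1 and Mt3 in all 6 comparisons, and the ventral value over both sexes, -0.55, is the filled one.

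The sexes were compared in the saline-sired mice, whose libraries also serve as controls above. In dorsal hippocampus females minus males came to -0.32 ± 0.13 for Mt1, -0.34 ± 0.15 for Mt2 and 0.13 ± 0.09 for Mt3. None passed (adjusted p = 0.202, 0.262 and 0.451, edgeR, with 1.91% of all genes passing). In ventral hippocampus the same differences were 0.05 ± 0.16, -0.14 ± 0.17 and 0.24 ± 0.11, and none passed, against 2.31% of genes.

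A ratio of members within a library is free of library scaling and asks whether the members changed alike. In ventral hippocampus the ratio of Mt2 to Mt3 was 0.539, 0.600 and 0.493 in saline-sired males and 0.488, 0.403 and 0.373 in saline-sired females. In nicotine-sired males it was 0.395, 0.377 and 0.442, and in nicotine-sired females 0.330, 0.295 and 0.387. The groups were apart in males and overlapped in females. The mean log2 ratio was lower by 0.37 in nicotine-sired mice, from -1.07 ± 0.26 to -1.44 ± 0.21 (SD, n = 6 each; two-sided exact permutation test within sex, p = 0.010, adjusted p = 0.030 over 6 ratios; smallest possible p 0.005).

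The ratio of Mt1 to Mt2 rose in the ventral nicotine-sired libraries. It was 1.54, 1.54 and 1.57 in saline-sired and 1.77, 2.0 and 1.80 in nicotine-sired males, and 1.63, 1.74 and 1.96 in saline-sired and 1.89, 2.34 and 1.90 in nicotine-sired females. The male groups were apart and the female groups overlapped. The log2 difference was 0.23 (exact permutation p = 0.015, adjusted p = 0.030). Mt2 thus fell relative to both Mt1 and Mt3 in the same libraries. The ventral ratio of Mt1 to Mt3 differed by -0.15 (exact permutation p = 0.050, adjusted p = 0.060) and did not pass.

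In dorsal hippocampus the ratio of Mt1 to Mt2 was higher by 0.16 in nicotine-sired mice (exact permutation p = 0.015, adjusted p = 0.030). It was higher by 0.17 in males and 0.15 in females, and the p reached 0.085 when 1 mouse was left out. The dorsal ratio of Mt2 to Mt3 differed by -0.31 (exact permutation p = 0.035, adjusted p = 0.0525), made of -0.53 in males and -0.09 in females, and that of Mt1 to Mt3 by -0.15 (exact permutation p = 0.150, adjusted p = 0.150). The ventral ratios of Mt1 to Mt2 and of Mt2 to Mt3 stayed under an unadjusted 0.05 in all 12 such omissions.

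**Figure D3:**
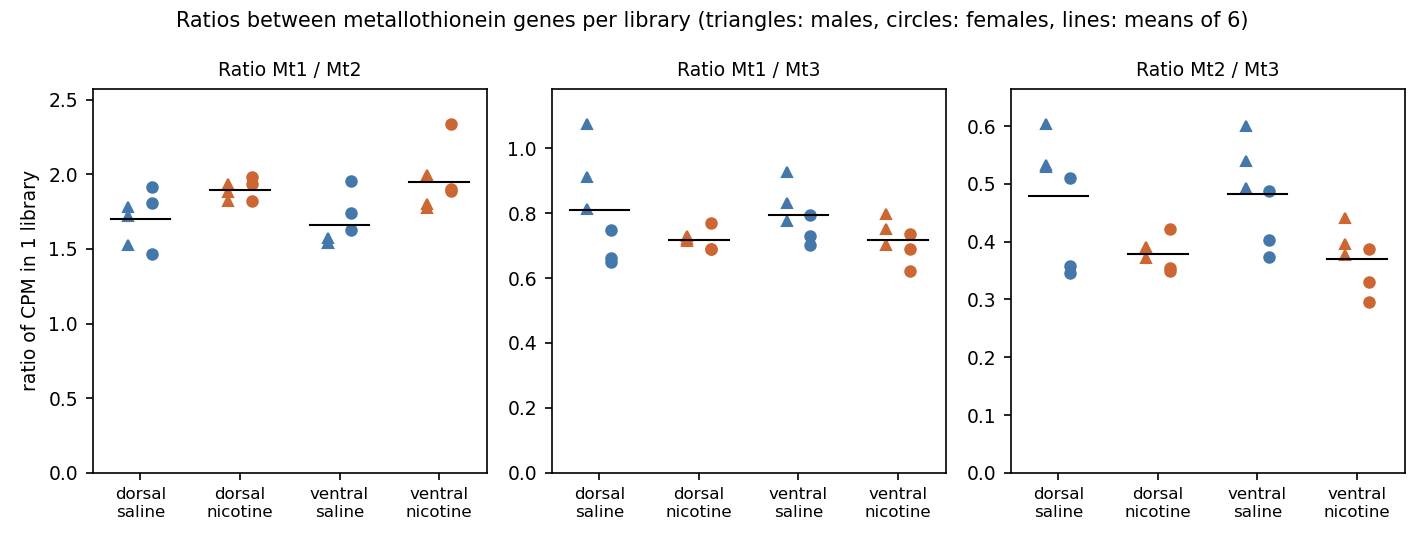
Ratio of CPM between metallothionein genes in each library (y axis, from 0), by region and sire treatment (x axis; blue saline, orange nicotine; triangles males, circles females; lines means of 6). In ventral hippocampus the ratio of Mt2 to Mt3 spans 0.373 to 0.600 in saline-sired and 0.295 to 0.442 in nicotine-sired mice.

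Dorsal and ventral hippocampus differed little in the 3 genes in saline-sired mice, and in nicotine-sired mice the calls depended on the fit. In saline-sired mice the ventral minus dorsal log2 differences were 0.02 ± 0.11 for Mt1, 0.05 ± 0.12 for Mt2 and 0.04 ± 0.08 for Mt3, in a comparison where 14.5% of 19849 genes passed. In nicotine-sired mice they were -0.18 ± 0.11, -0.22 ± 0.12 and -0.18 ± 0.08, again with none passing (adjusted p = 0.273, 0.247 and 0.105, edgeR, with 16.9% of genes passing). When the mouse was added as a block, since both regions came from the same animals, Mt2 and Mt3 passed as lower in the ventral region of nicotine-sired mice, at -0.23 ± 0.06 (adjusted p = 0.0177) and -0.19 ± 0.06 (adjusted p = 0.0238). Mt1 had -0.20 ± 0.07 with an adjusted p of 0.0556 in that fit, which passed 23.4% of all genes. In saline-sired mice the blocked fit passed 22.3% of all genes and none of the 3 members. The test of whether the treatment difference itself differed between the regions gave -0.20 ± 0.15, -0.27 ± 0.17 and -0.22 ± 0.11 for Mt1, Mt2 and Mt3 (adjusted p = 0.881 for each), and with the block the adjusted p-values were 0.521, 0.496 and 0.496. edgeR called 0 genes in the unblocked test, with 4.76% at an unadjusted p under 0.05. The ventral minus dorsal log2 ratio was 0.00 ± 0.13 for Mt1 to Mt2, -0.01 ± 0.12 for Mt1 to Mt3 and -0.01 ± 0.13 for Mt2 to Mt3 (SD over 12 mice; two-sided exact sign-flip permutation p = 0.992, 0.783 and 0.795). Each ratio was higher in the ventral library in 6 of the 12 mice.

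Mice that were high for their group in the dorsal library tended to be high in the ventral one for Mt2. Deviations from group means correlated with r = 0.68 and rho = 0.63 over 12 mice (one-sided exact permutation within groups, p = 0.0147 and 0.0247, adjusted over 3 genes 0.0440 and 0.0741, the latter not passing), and r was 0.54 without the 2 mice farthest from the median. Mt1 had r = 0.55 (exact permutation p = 0.0394, adjusted p = 0.0590) and Mt3 r = 0.43 (exact permutation p = 0.207), which was 0.11 without the 2 farthest. Both libraries of a mouse share its dissection as well as its litter.

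**Figure D4:**
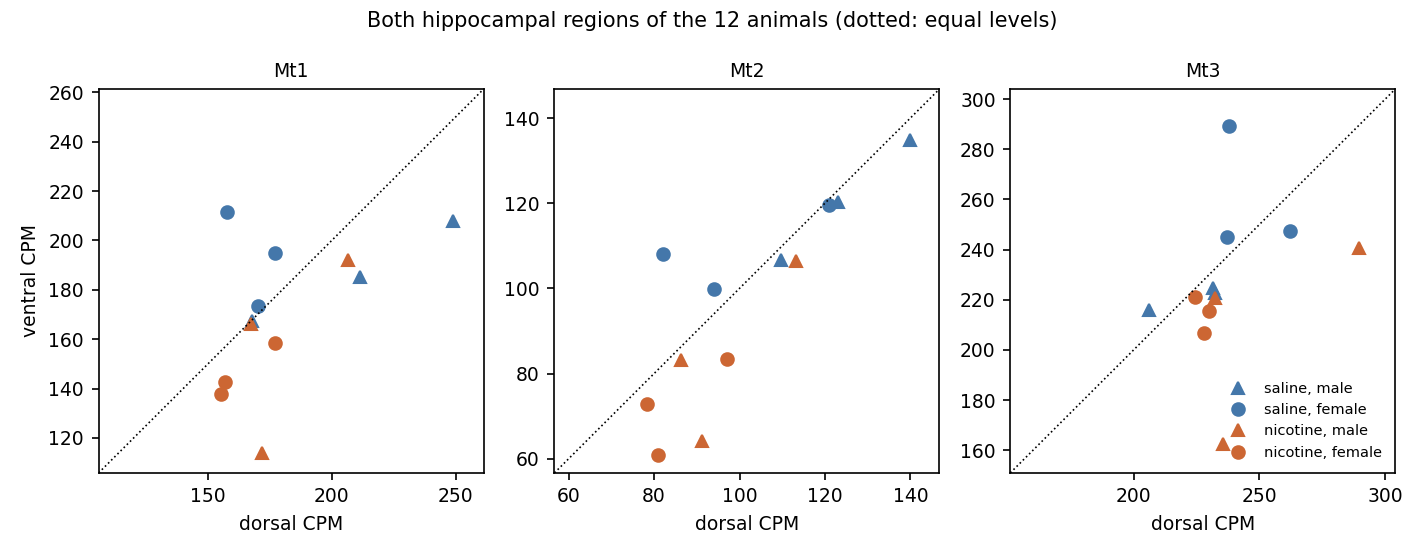
Dorsal level (x axis, CPM) against ventral level (y axis, CPM) of each metallothionein gene in the 12 mice; the axes do not start at 0 and the dotted line marks equal levels. Colours give sire treatment and shapes sex; the 3 nicotine-sired females lie below the line for all 3 genes.

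The genes most like each member across the 24 libraries were ranked by Pearson r of log2 CPM, with region means removed, among 10890 genes. Mt1 and Mt2 were each other's nearest gene, with r = 0.89. After Mt2, Mt1 was most like Ilk (0.84), Shb (0.77), Thrsp (0.76) and Cebpb (0.75). After Mt1, Mt2 was most like Mxd4 (0.79), Smim3 (0.79), Thrsp (0.78) and Gpt2 (0.78). Tsc22d3, a glucocorticoid-induced gene, was 7th for Mt2 (0.76) and 77th for Mt1 (0.60). Sgk1, another such gene, was 117th for Mt2 (0.60) and 464th for Mt1 (0.47). Mt3 was most like Ssbp4 (0.93), Rps9 (0.93), Rpl13 (0.92), Rpl8 (0.91) and Rplp0 (0.91), and these were 0.80 to 0.87 without the 2 libraries farthest from the median of Mt3. That list rests on Pearson r: by Spearman rho, which ran from 0.66 to 0.82, the same genes were 16th, 74th, 27th, 79th and 340th for Mt3. By rho Mt1 and Mt2 were again each other's nearest gene (0.92), and the other genes given as most like them were 2nd to 9th. Tsc22d3 was 10th by rho for Mt2 and 22nd for Mt1, and Sgk1 was 462nd and 546th. The r of Mt3 was 0.65 with Mt1 and 0.45 with Mt2. The astrocyte gene Aqp4 had an r of -0.05, -0.15 and -0.10 with Mt1, Mt2 and Mt3. Gja1, another astrocyte gene, had 0.24, 0.28 and -0.04, and 0.39, 0.38 and 0.17 without the 2 libraries farthest from the median of each member. These values describe 24 libraries that share mice, groups and scaling, and group differences enter them. Tsc22d3 and Sgk1 are from a list of 20 genes, and Aqp4 and Gja1 are from 14 astrocyte markers. Values for the other genes of these lists are not given.

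Genes that supply or use the same metals did not pass the adjusted threshold with Mt2 over both sexes. Of 8 tested zinc exporters of the SLC30 family, 0 passed in either region over both sexes, with ventral and dorsal medians of 0.08 and -0.02 against 0.01 and 0.00 over all genes. Of the SLC39 zinc importers 0 of 13 ventral and 0 of 14 dorsal passed, and of 11 copper genes 0 passed in each region. At an unadjusted p under 0.05 by edgeR there were 2 of 8, 6 of 13 and 3 of 11 ventral genes of these lists, beside 15.7% of all genes. In dorsal hippocampus there were 0, beside 10.8% of all genes. Mtf1, the zinc sensor that drives Mt1 and Mt2, had a ventral difference of -0.03 ± 0.05 and a dorsal one of -0.0019 ± 0.05. Slc30a1, the plasma membrane exporter that MTF1 also drives, had 0.07 ± 0.06 and -0.05 ± 0.06. Slc30a3, which loads zinc into synaptic vesicles, had -0.07 ± 0.12 and 0.13 ± 0.10. Slc39a14, an importer induced in inflammation, had -0.14 ± 0.06 and -0.15 ± 0.08. Slc30a10, a manganese exporter, was higher in ventral nicotine-sired males, at 0.43 ± 0.08 (adjusted p = 0.0103), and had -0.19 ± 0.08 in females (adjusted p = 0.324). The treatment difference of Slc30a10 differed between the sexes in ventral (0.62 ± 0.12, adjusted p = 0.0219) and in dorsal hippocampus (0.85 ± 0.15, adjusted p = 0.0188). Of all genes, 3.21% passed in ventral males, and the sex difference passed 1.07% in ventral and 2.24% in dorsal hippocampus.

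A list of 20 glucocorticoid-induced genes was chosen with earlier results of these data known. Of these, 8 were lower and 0 higher in ventral hippocampus over both sexes, and 5 were lower and 0 higher in the dorsal one. Among all genes 0.65% were lower in ventral and 0.0523% in dorsal hippocampus. Their median log2 differences were -0.42 and -0.36. Tsc22d3, which encodes the anti-inflammatory protein GILZ, fell by 0.77 in ventral and by 0.64 in dorsal hippocampus (adjusted p = 8.65e-05 and 0.0213, edgeR). Within saline-sired mice, dorsal Tsc22d3 had -0.88 for females minus males (adjusted p = 0.00212, edgeR). In dorsal hippocampus the list summed to 1048 to 1132 CPM in saline-sired and 670 to 759 in nicotine-sired males. Dorsal females overlapped, at 654 to 662 CPM for saline and 599 to 668 for nicotine. The list summed to 923 to 928 CPM in ventral saline-sired males, 597 to 663 in nicotine-sired males, 564 to 632 in saline-sired females and 520 to 564 in nicotine-sired females. The saline-sired males lay above every other ventral library on this list, the nicotine-sired females lay lowest, and the groups between them overlapped. Mt2 in the same groups had 121 ± 14.1 CPM in saline-sired males, 84.6 ± 21.1 in nicotine-sired males, 109 ± 9.95 in saline-sired females and 72.4 ± 11.2 in nicotine-sired females (SD, n = 3). The part of this list in the Mt2 result was not tested. Nr3c1, the glucocorticoid receptor gene, had 0.25 ± 0.06 in ventral and 0.15 ± 0.07 in dorsal hippocampus (adjusted p = 0.0659 and 0.485).

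Of the acute phase and interleukin 6 genes tested, 1 of 8 was lower in ventral and 0 of 9 in dorsal hippocampus over both sexes, beside 0.65% and 0.0523% of all genes. In ventral males the 10 listed summed to 51.0 to 72.0 CPM for nicotine and 80.9 to 100.4 for saline. The one was Lcn2, the iron-chelator carrier lipocalin 2, at -3.52 ± 0.74 (adjusted p = 0.0309), from -8.54 in males and 1.51 in females. Its counts were 852, 788 and 370 in the ventral libraries of saline-sired males A, B and C, and 0 to 12 in the other 9 ventral libraries. In dorsal hippocampus they were 1246, 915 and 337 against 0 to 24, so the saline-sired males stood apart from all other mice, and the size of the fold rests on few counts. Stat3, the transducer of interleukin 6 signals, was lower in males at -0.39 in both regions (adjusted p = 0.00452 ventral and 0.0344 dorsal) and had 0.14 in females of both. In males 3.21% of all genes passed in ventral and 1.78% in dorsal hippocampus. Of 16 glutathione and antioxidant genes, 1 was lower in ventral hippocampus (0.65% of all genes) and 0 in dorsal. It was Gss, the second enzyme of glutathione synthesis, at -0.26 ± 0.06 (adjusted p = 0.0336). Slc7a11, the cystine importer, was higher in ventral nicotine-sired males, at 0.70 ± 0.15 (adjusted p = 0.0229), in a comparison that passed 3.21% of all genes.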

How the data were processed

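Stranded mRNA libraries were read as single-end 150 bp on 3 lanes, per the labels' protocols. The authors deposited 1 table of raw counts per Ensembl gene. Builds mm10 and GRCm38, Cuffdiff 2.2.1.3, Cufflinks and TopHat2 2.1.0 are listed without roles, per the submitters' processing notes. How reads were counted, on which strand and with what rule for multi-mapped reads is not given in the sources used here.

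Tests on the counts were run in R 4.3.3 by edgeR 4.0.16 with limma 3.58.1, using TMM, filterByExpr by group, robust quasi-likelihood F test, two-sided, Benjamini-Hochberg over all genes, threshold 0.05. Regions were fitted apart (19130 dorsal, 19224 ventral genes) with 1 mean per sire treatment and sex, and region comparisons used all 24 libraries (19849 genes). CPM came from the counts and TMM-scaled library sizes. Ratios were tested over all 400 arrangements of sire treatment within sex, or 4096 sign patterns for region. The edgeR fits of each region were also run on simulated libraries. These were drawn as independent and held no litter or antisense share, so they do not bear on those limits. Gene coordinates and transcripts are GENCODE M21, in which 51719 of the identifiers were found and 193 were not, and promoter windows are RefSeq GRCm38.p6. All 3 genes matched both.

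Dorsal and ventral libraries with 1 title prefix were taken as 1 mouse. The median correlation of their deviations from the group mean was 0.154 (-0.0755 to 0.528), over 0.1 in 9 of 12 mice, and 9 matched their own partner best. Alternatives were RLE factors, DESeq2 1.42.0, a fit that was not robust, no low-count filter, a joint fit, blocks, covariates for choroid plexus level and antisense share, leaving out each mouse, and other gene lengths. The first listed transcript as a length was chosen after seeing the data. Genes named were the members, Mt4, at most 5 called per list, 6 zinc or glucocorticoid genes given by name, and the 5 genes most like each member. Gm45774, Gja1, Sgk1, the marker genes named in ventral hippocampus and the females' values of Slc30a10, Lcn2 and Stat3 were added after values were seen. The members and lists were chosen with earlier results of these data known. Figures used matplotlib (Python).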

Additional observations from a re-analysis of the deposited data

Results flagged for a closer look

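Mt3 in the dorsal library of nicotine-sired male C reached 290 CPM, while the other 5 dorsal nicotine-sired libraries lay between 224 and 236 CPM. The gap to the nearest of them was large for 6 values by Dixon's 95% criterion, which chance exceeds in about 1 of 20 groups. Without this mouse the dorsal Mt3 difference between sire treatments changed from 0.04 to -0.02, and neither value passed.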

How the results depend on the processing

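Among 39 results on the members and 777 alternatives, 745 kept their call and sign, 14 changed sign with neither value passing, 13 lost a call, 5 gained one and 0 reversed a call. The ventral Mt2 difference over both sexes was -0.55 without the low-count filter, -0.56 with the title letter as a block (adjusted p = 0.0605), -0.56 with the choroid plexus covariate and -1.01 with the antisense covariate, and ran from -0.65 to -0.47 when 1 mouse was left out. Its adjusted p ran from 0.000183 to 0.913 over these and the other fits. The mice of different groups share only a title letter: libraries with the same letter deviated from their group means with median correlations of -0.099 to 0.0426, and in each region some pairs were negative for every letter. In ventral males the Mt2 difference passed with DESeq2 (-0.51) and without nicotine-sired male C (-0.71), with a range of -0.71 to -0.35, and in females it passed with DESeq2 (-0.59). With the animal block, ventral minus dorsal in nicotine-sired mice passed for Mt2 (-0.23) and Mt3 (-0.19). Leaving out 1 mouse moved the log2 ratios, dorsal Mt1 to Mt2 between 0.10 and 0.20, dorsal Mt2 to Mt3 between -0.36 and -0.22 and ventral Mt1 to Mt3 between -0.18 and -0.11. Median CPM per kilobase was 312 for Mt1 with the first listed transcript and 430 for Mt3 with that or the longest one. The cause of these changes was not tested. Counts of genes passing changed by over 1.5 times: for sire treatment over both sexes in ventral hippocampus 337 became 560 without the filter, 681 with DESeq2, 206 in the fit of all 24 libraries, 206 with the choroid plexus covariate, 1 with the antisense covariate and 176 to 457 without 1 mouse. In dorsal hippocampus 15 became 55, 205, 61, 6 with the letter block, 1 with the antisense covariate and 0 to 19 without 1 mouse. In ventral males 617 became 0 with the antisense covariate and 284 to 671 without 1 mouse. In ventral females 6 became 99 without the filter, 269 with DESeq2, 19 in the joint fit, 27 with the letter block, 85 with the choroid plexus covariate, 0 with the antisense covariate and 0 to 114 without 1 mouse. In dorsal males 341 became 876 with DESeq2, 647 in the joint fit, 164 with the letter block, 144 with the antisense covariate and 87 to 624 without 1 mouse. In dorsal females 6 became 14 without the filter, 260 with DESeq2, 89 in the joint fit, 2 with the letter block or choroid plexus covariate, 3 with the antisense covariate and 0 to 12 without 1 mouse. For the sex difference of the treatment difference 205 ventral became 523 with DESeq2, 0 with the antisense covariate and 84 to 463 without 1 mouse, and 428 dorsal became 1282 with DESeq2, 1137 in the joint fit, 217 with the letter block, 266 with the choroid plexus covariate and 76 to 837 without 1 mouse. For the sexes in saline-sired mice 444 ventral became 865 with DESeq2, 263 with the antisense covariate and 140 to 763 without 1 mouse, and 366 dorsal became 974 with DESeq2, 794 in the joint fit, 196 with the letter block, 195 with the antisense covariate and 80 to 731 without 1 mouse. For region, 2877 became 4435 with the animal block in saline-sired mice, with 1097 to 3403 without 1 mouse, and 3347 became 4648 with that block in nicotine-sired mice, with 2117 to 3576 without 1 mouse. Each library held at least 2153 counts of Mt1, Mt2 and of Mt3, while depth limits what can be said of Mt4, Gm45774 and Lcn2, whose counts were few or 0 in some libraries.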
